A study of Mus musculus with 26 samples.

Results

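The 8 genes described here are transcripts that reactive glia of the injured retina are known to make: Gfap, Vim, Nes, Cd44, Serpina3n, A2m, Lcn2 and Agt. They were taken as a list of symbols, and each symbol matched 1 of the 37991 Ensembl genes in the count table. All 8 are protein-coding genes. On NCBIM37 (mm9), counted from 1, they are ENSMUSG00000020932 (Gfap, chr11:102748650-102762226), ENSMUSG00000026728 (Vim, chr2:13495554-13504453), ENSMUSG00000004891 (Nes, chr3:87775000-87784373) and ENSMUSG00000005087 (Cd44, chr2:102651298-102741822). The secreted proteins are encoded by ENSMUSG00000021091 (Serpina3n, chr12:105644939-105652539), ENSMUSG00000030111 (A2m, chr6:121586191-121629255), ENSMUSG00000026822 (Lcn2, chr2:32240153-32243317) and ENSMUSG00000031980 (Agt, chr8:127080434-127093606). Every gene in the set passed the filter on low counts in each of the 4 whole-retina experiments, and 7 of 8 (all but Nes) passed it in sorted rods.

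The libraries came from rd10 mice (labelled B6.CXB1-Pde6brd10/Jrd10), in which a mutation of the rod phosphodiesterase gene Pde6b makes rods die in the weeks after birth. Mice were injected intraperitoneally from postnatal day 9 to day 24 with an inhibitor of a chromatin enzyme, or with saline or the inhibitor's solvent as a control (the UNC1999 solvent held DMSO, PEG300 and Tween-80), and mice of both sexes were used. Tissue for all libraries was collected on postnatal day 24. Whole retinas were sequenced after DZNep (2 treated, 4 control), UNC1999 (3 treated, 3 control), UNC0642 (2 treated, 2 control) and Romidepsin (3 treated, 3 control), which gave 22 retina libraries, 12 of them controls. In the 5th experiment, rods were sorted by FACS from rd10 mice crossed to B6.Cg-Tg(Nrl-EGFP)1Asw/J, where the Nrl promoter drives EGFP in rods, after GSK2879552 (2 treated, 2 control), and those libraries were made with another kit. DZNep and UNC1999 are inhibitors of EZH2, the methyltransferase for lysine 27 of histone H3. UNC0642 inhibits G9a and GLP, which methylate lysine 9, Romidepsin inhibits histone deacetylases, and GSK2879552 inhibits the lysine demethylase LSD1. All groups carry the rd10 mutation, and none is a retina without degeneration, so the control level is that of a degenerating retina. The labels number biological replicates without saying that each is a separate animal, so p-values measure the spread between these libraries, which may be technical.

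Müller glia span the retina and respond to dying photoreceptors with gliosis, a change of state in which they thicken their intermediate filament skeleton, remodel their surface and secrete acute-phase proteins. Retinal astrocytes, which lie at the inner surface, make Gfap even in the healthy eye. Cytokines of the interleukin 6 family, such as LIF, act through the receptor chain IL6ST on JAK kinases and STAT3 and are known inducers of Gfap and of several acute-phase genes in Müller glia. In the list, Gfap, Vim and Nes encode intermediate filaments, Cd44 the hyaluronan receptor, Serpina3n and A2m secreted protease inhibitors, Lcn2 a secreted protein that binds siderophores, and Agt angiotensinogen, the precursor of angiotensin.

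Between 13732959 and 36354094 reads were counted per retina library and between 7289460 and 19864491 per rod library. Levels are given as CPM, counts per 1e6 counted reads after scaling by the trimmed mean of M-values (TMM) over the 22 retinas, or over the 4 rod libraries for rods. Rod markers (9 genes, the transcription factor Nrl among them) summed to 5059 to 33568 CPM in retinas and mature Müller glia markers (14 genes, Glul among them) to 6322 to 13827 CPM, so both cell types named by the tissue were present. In bulk retina, fewer cells of a type and less RNA per cell cannot be told apart. Some libraries stood apart for these genes. Romidepsin control 1 was the lowest of its group for 8 of 8 genes, UNC1999 control 3 and UNC1999 treated 1 were each the lowest of theirs for 7 of 8, and DZNep control 1 was the highest of its 4 controls for 7 of 8. Values without these libraries are given beside the results they move most.

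In control retinas, levels compared per length of exon put Vim first, with a median of 164.9 CPM per kb (lowest 99.0, highest 346, n = 12), followed by Serpina3n at 110.6 (46.3 to 314) and Gfap at 86.5 (39.1 to 220.4). Lcn2 stood at 43.3 CPM per kb with the widest range, 4.18 to 587. A2m (33.8, range 18.0 to 114), Agt (18.0, range 6.93 to 25.2) and Cd44 (10.6, range 7.39 to 26.9) came next. Nes was the lowest at 2.95 CPM per kb (1.82 to 6.52). The ranges of neighbours in that order overlapped throughout, apart from Cd44 and Nes, whose control retinas did not overlap.

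The same controls, all rd10 mice without inhibitor, differed between experiments. Lcn2 averaged 17.5 ± 9.04 CPM (SD, n = 4) in the DZNep controls and 890 ± 651 CPM (SD, n = 2) in the UNC0642 controls, 50.9 times as much. Highest and lowest control means differed 5.30-fold for Serpina3n, 4.49-fold for A2m, 3.59-fold for Gfap, 3.15-fold for Cd44 and 2.42-fold for Vim, each with the UNC0642 controls highest and the DZNep controls lowest. For Nes the UNC1999 controls were highest (2.48-fold over the DZNep controls), and for Agt the Romidepsin controls were highest and the UNC1999 controls lowest (2.40-fold). The summed rod markers moved the other way in the UNC0642 controls, at 5059 and 5187 CPM against 8671 to 19509 CPM in the other 10 control retinas, and their part in these levels was not tested. Each inhibitor is therefore compared with its own controls only.

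**Figure D1:**
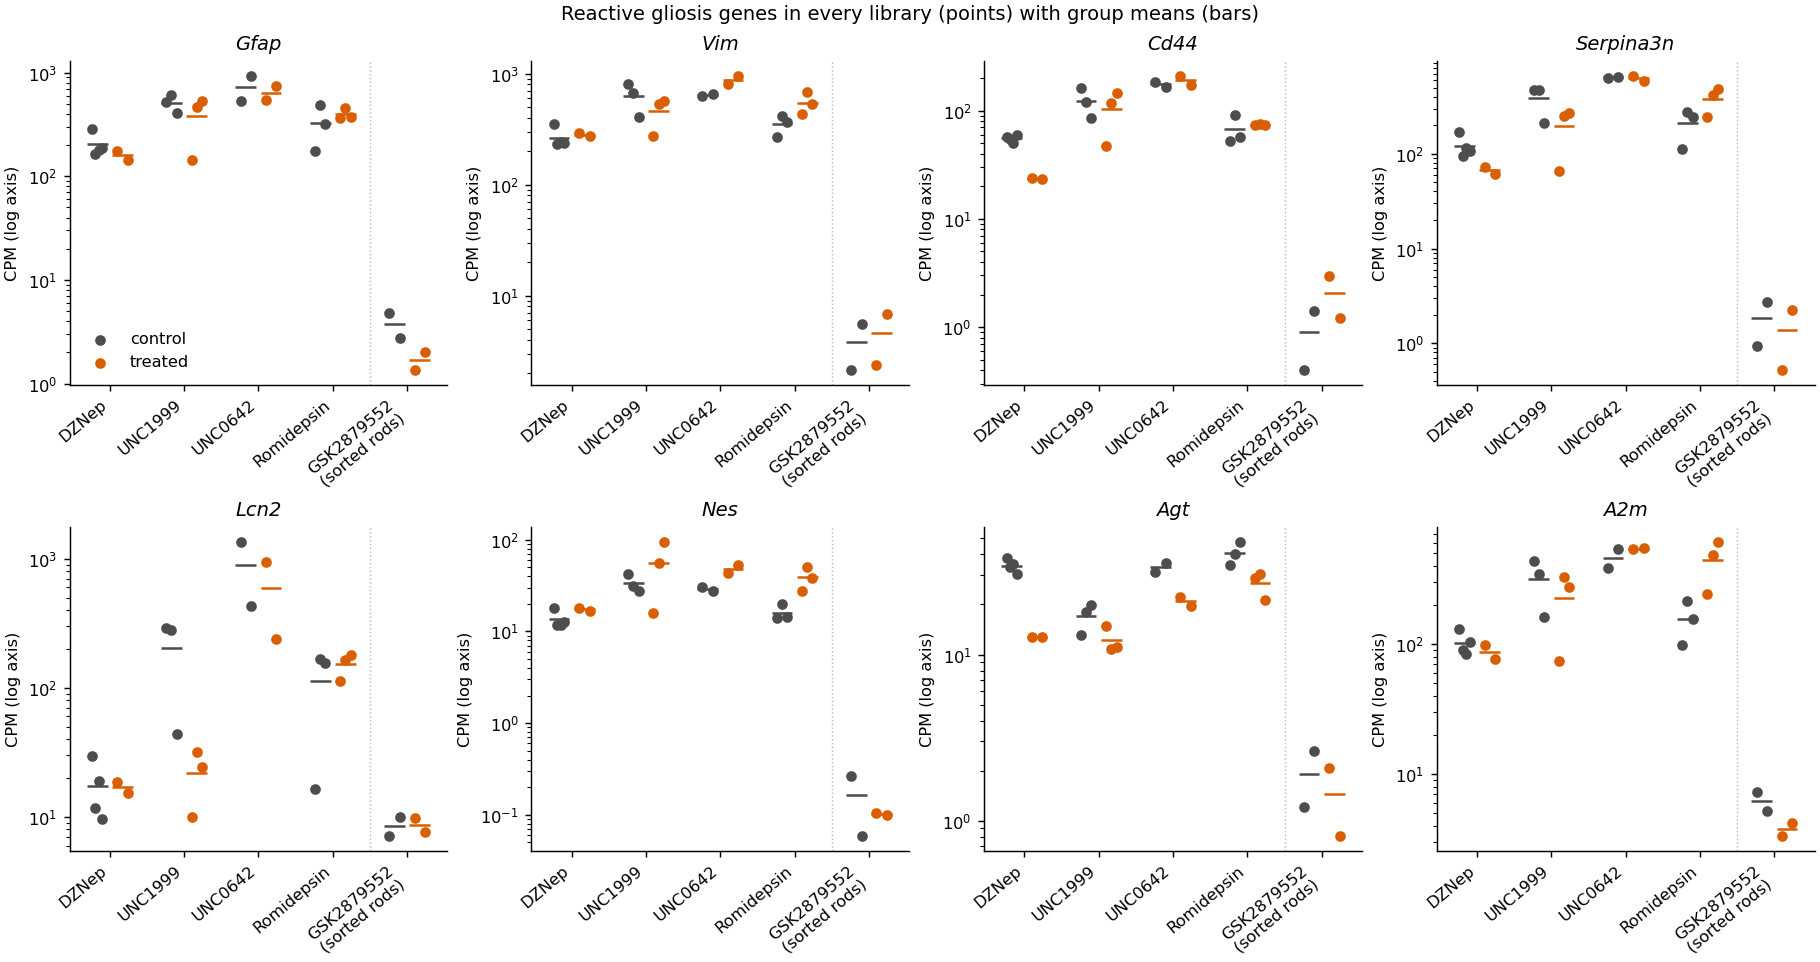
CPM of each of the 8 genes in every library (points, log axis) with the group mean (bar), for controls and treated libraries of the 5 experiments. The 4 libraries of sorted rods, right of the dotted line, reach at most 10.0 CPM for any gene, and the UNC0642 controls are the highest control group for 6 of the 8 genes.

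After DZNep, 3 of the 8 genes fell and none rose. Cd44, Agt and Serpina3n were lower in both treated retinas than in every control, whereas Vim, Lcn2 and A2m had log2 fold changes between -0.22 and 0.08. A gene is said to rise or fall where edgeR's quasi-likelihood test gave a Benjamini-Hochberg adjusted p under 0.05 over all genes tested. The study also asked for an absolute log2 fold change above 1, which Cd44 and Agt met and Serpina3n did not. DZNep changed much of the transcriptome by that rule, 12.9% of genes higher and 9.72% lower, and 46.1% of all genes had groups that did not overlap, so 3 of 8 is to be read against those shares. Counts of genes with an unadjusted p under 0.05, given below, lack such a share, which was not counted.

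Cd44 stood at 56.9, 54.8, 50.7 and 59.1 CPM in the controls and at 23.8 and 23.2 CPM after DZNep. It fell by 1.25 on the log2 scale (SE 0.0740, adjusted p = 0.000196), or 2.37-fold. Both treated libraries lay well under the narrow control range. Agt, at 38.0, 33.6, 35.1 and 30.5 CPM in the controls, was 12.7 CPM in both treated libraries, and it fell by 1.44 (SE 0.0945, adjusted p = 0.000270), or 2.71-fold. Serpina3n went from 169.1, 95.6, 115 and 106 CPM to 72.2 and 61.7 CPM and fell by 0.86 (SE 0.203, adjusted p = 0.0178). Its control 1 was far above the other 3 controls, and without that library the fall was 0.66 (adjusted p = 0.00126). Leaving out either treated library took the call away (adjusted p = 0.0919 without treated 1 and 0.105 without treated 2). Cd44 and Agt passed without any 1 library.

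Among the filament genes, Gfap was 283, 165, 178 and 186 CPM in the controls and 177 and 142 CPM after DZNep. The log2 fold change was -0.35 (SE 0.198, adjusted p = 0.234), with overlapping groups. Vim (231 to 349 CPM in controls, 273 and 289 CPM treated) had a log2 fold change of 0.08 (adjusted p = 0.738) and Nes (11.7 to 18.0 CPM against 18.2 and 16.8 CPM) of 0.37 (adjusted p = 0.145). Those verdicts depended on DZNep control 1, the highest control for both. Without it, Vim had a log2 fold change of 0.24 (adjusted p = 0.00560) and Nes of 0.53 (adjusted p = 0.00353), so that 5 of 8 genes passed, Cd44, Serpina3n and Agt lower and Vim and Nes higher, in a fit where 27.8% of all genes passed. Without it, Gfap stood at -0.15, A2m at -0.09 and Lcn2 at 0.35, none of which passed. Lcn2 was low throughout, 9.62 to 29.6 CPM in controls and 15.4 and 18.6 CPM treated, and its interval was wide (log2 fold change -0.03, 95% CI -0.89 to 0.83). A2m gave -0.22 (95% CI -0.60 to 0.15). Mature Müller glia markers summed to 12187 to 12583 CPM in DZNep controls and 8550 and 9421 CPM in treated retinas, microglia markers to 224 to 452 against 176 and 194 CPM, and rod markers to 10291 to 16623 against 27371 and 28099.5 CPM. Markers of the retinal pigment epithelium (8 genes) summed to 52.8 to 152 CPM in controls and 199 and 265 CPM treated, vascular markers to 780 to 798 against 622 and 655 CPM, and retinal astrocyte markers to 1130 to 1167 against 1231 and 1309 CPM. The part of these shifts in the 3 falls was not tested.

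After UNC1999, the other EZH2 inhibitor, none of the 8 genes passed, while 0.501% of all genes rose and 0.101% fell. The quasi-likelihood test gave an unadjusted p under 0.05 for 2 of the 8, Lcn2 and Agt. The likelihood ratio test and DESeq2 each passed 1, Lcn2, beside 1641 and 1459 of all 15775 genes. Lcn2 was 289.9, 281 and 44.2 CPM in controls and 9.95, 31.7 and 24.4 CPM in treated retinas. All 3 treated libraries lay below all 3 controls, which happened for 1 of the 8 genes and for 27.4% of genes overall in either direction. Its log2 fold change was -3.21 (SE 0.697, adjusted p = 0.0589), the largest of any of the 8 genes in any retina experiment, and its adjusted p depended on control 3. Without that library the value was -3.67 (adjusted p = 0.00146), and without treated 1 it was -2.88 (adjusted p = 0.148). The shares of all genes passing in those fits are not given here.

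Serpina3n, at 477, 468 and 214 CPM in controls and 66.5, 252 and 269 CPM after UNC1999, gave -0.98 (SE 0.499, adjusted p = 0.281). Agt was 13.1, 18.1 and 19.8 CPM in controls and 14.8, 10.8 and 11.1 CPM treated, a log2 fold change of -0.49 (adjusted p = 0.161). Nes spread from 16.0 to 94.5 CPM among the 3 treated retinas, wider than its controls at 27.4 to 41.8 CPM, and gave 0.73 (95% CI -0.45 to 1.91). Gfap (-0.43), Vim (-0.46), Cd44 (-0.25) and A2m (-0.49) had intervals that held 0 and groups that overlapped. UNC1999 treated 1 carried much of their downward shift: without it the log2 fold change was -0.04 for Gfap, -0.20 for Vim, 0.09 for Cd44 and -0.07 for A2m. Microglia markers summed to 242 to 423 CPM in controls and 140 to 183 CPM in treated retinas, rod markers to 10997 to 19509 against 24910.5 to 33568 CPM, pigment epithelium markers to 110 to 131 against 369 to 430 CPM, and vascular markers (10 genes) to 599 to 672 against 397 to 505 CPM. These 4 lists did not overlap between the groups, and their part was not tested.

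After UNC0642, none of the 8 genes passed, and no gene of the 16321 tested did (0% higher, 0% lower). Unadjusted, p was under 0.05 for 3 of the 8, Vim, Nes and Agt. Those same 3 passed the likelihood ratio test and DESeq2, beside 145 and 152 of all 16321 genes. Vim, the main filament of Müller glia, was 628 and 653 CPM in controls and 813 and 955 CPM in treated retinas, with a log2 fold change of 0.46 (SE 0.0930, adjusted p = 0.299). Nes, 30.1 and 27.9 CPM in controls and 43.4 and 53.4 CPM treated, gave 0.73 (SE 0.117, adjusted p = 0.299). Agt, 31.4 and 35.5 CPM in controls and 22.2 and 19.7 CPM treated, gave -0.68 (SE 0.111, adjusted p = 0.299). In these 3 genes and in A2m (384 and 533 CPM against 540.4 and 543 CPM) the groups did not overlap. That is 4 of 8, against 52.1% of all genes in this 2 against 2 comparison.

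Serpina3n was at 639 and 649 CPM in UNC0642 controls and 666 and 594 CPM in treated retinas, a log2 fold change of -0.03 with a 95% CI of -0.23 to 0.16. Cd44 (0.12) and Gfap (-0.20) also overlapped between groups. Lcn2 was 1351 and 429.8 CPM in controls and 942 and 241 CPM in treated retinas, so that libraries of 1 group differed more than the groups did. Mature Müller glia markers summed to 8917 and 9572 CPM in controls and 6599 and 7100 CPM treated, and microglia markers to 608 and 863 against 364 and 585 CPM. Vascular markers summed to 813 and 960 CPM in controls and 723 and 732 CPM treated, and pigment epithelium markers to 57.6 and 124 against 139 and 162 CPM. The part of these shifts was not tested.

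After Romidepsin, 7 of the 8 genes had a positive log2 fold change and Agt a negative one, where DZNep had 2 of 8 positive, UNC1999 1 of 8 and UNC0642 4 of 8. Of all genes, 48.9% were positive after Romidepsin, 49.9% after DZNep, 49.6% after UNC1999 and 49.7% after UNC0642. The genes other than Agt varied together between libraries of 1 group, so these counts are not of 8 separate observations. Without Romidepsin control 1, 4 of 8 were positive (Vim, Serpina3n, Nes and A2m). None of the 8 passed, against 0.573% of genes higher and 0.174% lower over the whole table. Their median log2 fold change was 0.53, beside -0.01 over all genes tested. The unadjusted p was under 0.05 for 5 of the 8 (Vim, Serpina3n, Nes, Agt and A2m). The likelihood ratio test passed 3 (Nes, Agt and A2m), beside 1185 of all 16049 genes. DESeq2 passed 4 (Vim, Nes, Agt and A2m), beside 1074 of all genes. Groups did not overlap for 4 of the 8 genes, beside 25.9% of all genes.

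Nes, a filament of progenitors that adult Müller glia make again when reactive, was 14.1, 19.9 and 14.2 CPM in Romidepsin controls and 27.4, 50.5 and 38.4 CPM in treated retinas. All 3 treated libraries were higher than all controls. The log2 fold change was 1.26 (SE 0.232, adjusted p = 0.0529). A2m, a broad protease inhibitor, was 97.6, 214 and 154 CPM in controls and 241, 486 and 609 CPM treated, again without overlap, with a log2 fold change of 1.51 (SE 0.362, adjusted p = 0.0794). Vim stood at 266, 416 and 363 CPM against 431, 676 and 529.7 CPM, its lowest treated library just above its highest control, and gave 0.64 (SE 0.203, adjusted p = 0.136). Romidepsin treated 1 had the lowest value of the treated group for 7 of the 8 genes. Without it, Nes (log2 fold change 1.45, adjusted p = 0.0205) and A2m (1.80, adjusted p = 0.0308) passed, as did 3.10% of all genes. Nes also passed without treated 2 (1.04, adjusted p = 0.0427), as did 1.73% of all genes.

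Agt went from 34.6, 40.5 and 47.6 CPM in Romidepsin controls to 28.9, 30.5 and 21.4 CPM, with every treated library below every control and a log2 fold change of -0.61 (SE 0.174, adjusted p = 0.108). Serpina3n was 112, 279 and 243 CPM in controls and 247, 417 and 479 CPM in treated retinas and gave 0.84 (SE 0.340, adjusted p = 0.225). Gfap was 174, 483 and 321 CPM against 368, 453 and 371 CPM (0.27, adjusted p = 0.667). Cd44 was 52.2, 91.7 and 57.3 CPM against 73.4, 74.5 and 73.5 CPM (0.13, adjusted p = 0.763), and Lcn2 16.5, 166 and 155 CPM against 113, 165 and 180.5 CPM (0.43, adjusted p = 0.754). Control 1 had the lowest value of the controls in all of these. Without it, Gfap stood at -0.03, Cd44 at -0.02 and Lcn2 at -0.08, whereas Nes (1.18), A2m (1.26), Serpina3n (0.54), Vim (0.47) and Agt (-0.72) kept their direction and none passed. Beside these values, mature Müller glia markers summed to 11533 to 13827 CPM in controls and 8190 to 9369 CPM in treated retinas, and microglia markers to 414 to 636 against 299 to 408 CPM. Rod markers summed to 8671 to 14075 against 11352 to 16268 CPM, pigment epithelium markers to 83.9 to 97.2 against 47.4 to 62.1 CPM, and vascular markers to 797 to 991 against 593 to 665 CPM. Neutrophil markers were near 0 in both groups, at most 0.418 CPM in controls and 1.10 CPM treated. The part of these shifts was not tested.

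**Figure D2:**
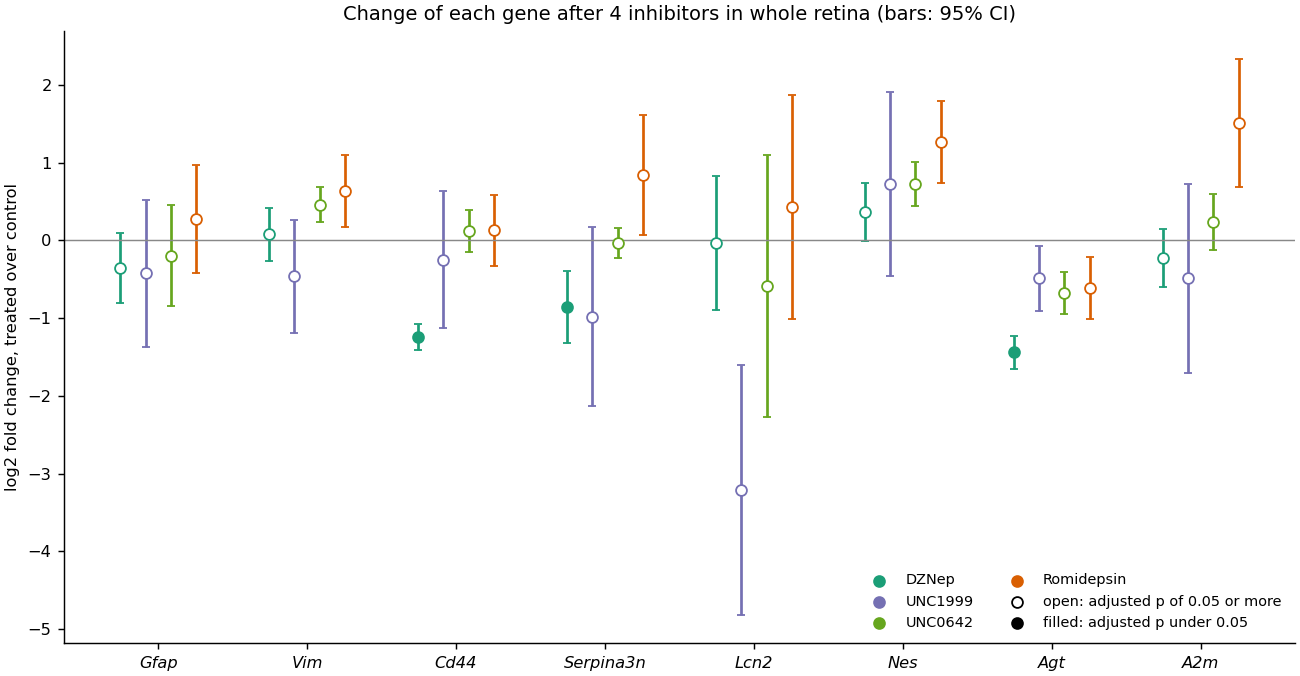
Log2 fold change of each gene, treated over control, after DZNep, UNC1999, UNC0642 and Romidepsin in whole retina, with 95% confidence intervals (bars) from edgeR's quasi-likelihood fit. Filled points passed an adjusted p under 0.05 and are Cd44 (-1.25), Serpina3n (-0.86) and Agt (-1.44) after DZNep; Romidepsin gave the highest of the 4 values for 7 of the 8 genes.

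Set side by side over the 4 retina experiments, which share no control libraries, 2 of the 8 genes kept 1 direction. The share of all genes that did so was not counted, nor was one for the tallies of treated retinas below. Agt had a negative log2 fold change after each inhibitor (-1.44 after DZNep, -0.49 after UNC1999, -0.68 after UNC0642 and -0.61 after Romidepsin), and 10 of 10 treated retinas lay below the mean of their own controls. Its fall passed after DZNep alone. Nes had a positive one after each (0.37, 0.73, 0.73 and 1.26 in the same order), with 9 of 10 treated retinas above their controls' mean, and UNC1999 treated 1 as the exception. Nes passed in none of the 4. Gfap was above its controls' mean in 5 of the 10 treated retinas, Serpina3n in 4 and A2m in 6. The direction after Romidepsin was opposite to that after UNC1999 for 6 genes, to that after DZNep for 5 and to that after UNC0642 for 3 (Gfap, Serpina3n and Lcn2). Without Romidepsin control 1 these counts were 3, 2 and 2. In each of the 3 genes, leaving out 1 UNC0642 library or another also turned the UNC0642 value positive (up to 0.27 for Gfap, 0.05 for Serpina3n and 0.45 for Lcn2).

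Whether the Romidepsin effect differed from the other inhibitors was tested as a difference of log2 fold changes in 1 fit over the 22 retinas, so all of these contrasts share the Romidepsin libraries. Each gene had 1 estimate of the spread for all groups, whichever inhibitors were compared. For Cd44 against DZNep the SE was 0.431, where the separate fits gave 0.199 after Romidepsin and 0.0740 after DZNep. No gene of the set passed in any of the 4 contrasts. Against the mean of the other 3 inhibitors, all 8 differences were positive, beside 48.5% of all genes, with 2 unadjusted p under 0.05 (A2m and Serpina3n). A2m differed by 1.67 (SE 0.518, 95% CI 0.59 to 2.76, adjusted p = 0.0890) and Serpina3n by 1.47 (SE 0.492, 95% CI 0.44 to 2.50, adjusted p = 0.116). Of all 17274 genes, 2.81% passed in that contrast. By the likelihood ratio test A2m passed, beside 816 of all genes, and DESeq2 passed none of the set, beside 870 of all genes.

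Against UNC1999, 5.11% of all genes passed and 7 of the 8 differences were positive, beside 50.1% of all genes, with 4 unadjusted p under 0.05. The largest was that of Lcn2 (3.64, SE 1.05, adjusted p = 0.0522), followed by A2m (2.00, SE 0.616, adjusted p = 0.0668), Serpina3n (1.83, SE 0.586, adjusted p = 0.0776) and Vim (1.10, SE 0.367, adjusted p = 0.0886). The likelihood ratio test passed these 4, and DESeq2 passed 3 of them (Vim, Lcn2 and A2m), beside 1267 and 1333 of all 17274 genes. All 4 also passed the quasi-likelihood test once Romidepsin treated 1 (with 11.8% of all genes) or UNC1999 control 3 was left out. The share of all genes passing without UNC1999 control 3 is not given here. Agt differed by -0.12 (95% CI -0.61 to 0.36).

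Against DZNep, 0.289% of all genes passed and all 8 differences were positive, beside 47.3% of all genes. Unadjusted, 4 had a p under 0.05, namely Agt (0.82, SE 0.239, adjusted p = 0.124), Cd44 (1.37, SE 0.431, adjusted p = 0.151), Serpina3n (1.70, adjusted p = 0.218) and A2m (1.74, adjusted p = 0.228). DESeq2 passed Agt, beside 342 of all 17274 genes, and the likelihood ratio test passed none of the 8, beside 321 of all genes. Cd44 passed when the 3 experiments of its own library series (Romidepsin, UNC0642 and DZNep) were fitted without UNC1999 (adjusted p = 0.0338). Of all genes, 0.708% passed in that fit. Cd44 also passed when UNC1999 treated 1 alone was left out (adjusted p = 0.0369), where the share of all genes is not given here. Against UNC0642, where 0.0174% of all genes passed, the 8 differences were positive, beside 48.6% of all genes. None of the 8 had a p under 0.05, and neither the likelihood ratio test nor DESeq2 passed any of them. A2m was the largest with a p of 0.0775 (1.28, 95% CI -0.16 to 2.71) and Cd44 the smallest (0.01, 95% CI -0.92 to 0.94).

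**Figure D3:**
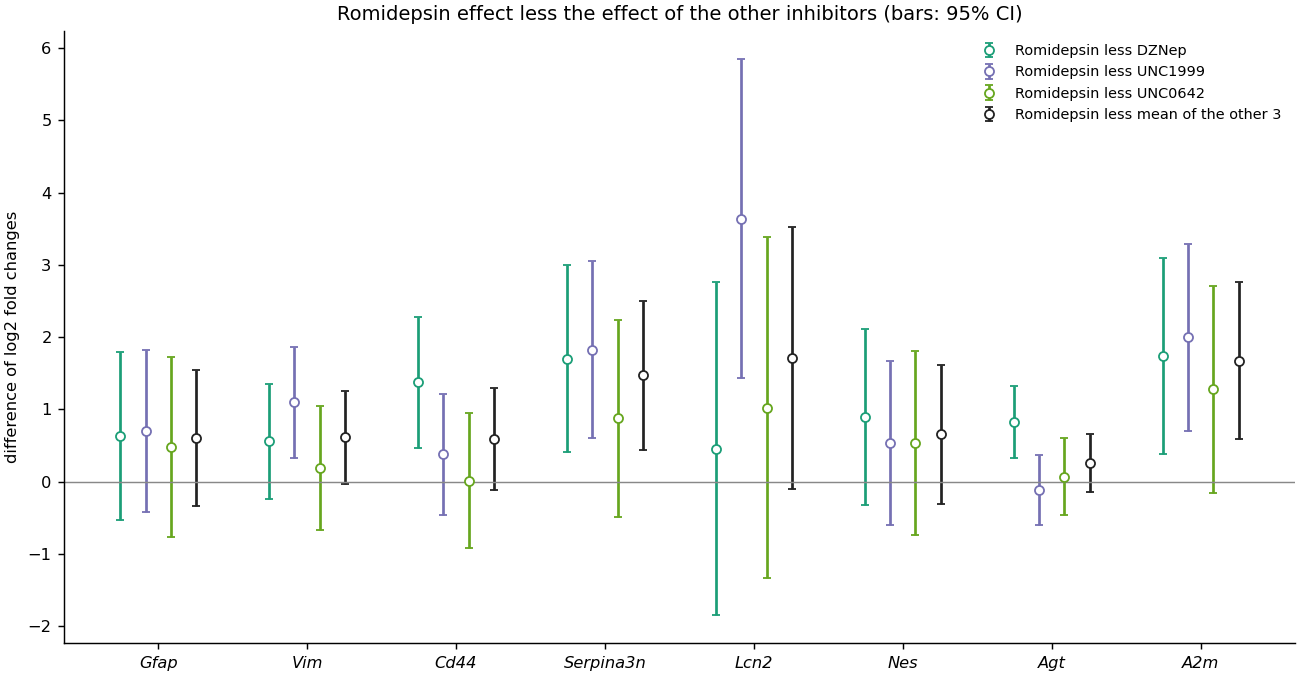
Difference of log2 fold changes, Romidepsin less DZNep, UNC1999, UNC0642 or the mean of these 3, for each gene with 95% confidence intervals (bars) from 1 fit over 22 retinas. No difference passed an adjusted p under 0.05; those of A2m are 1.74, 2.00, 1.28 and 1.67, and Lcn2 against UNC1999 is the largest at 3.64.

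A list of 22 genes of JAK-STAT and growth factor signalling was followed as well. Whether this signalling acts on the reactive gliosis genes in these retinas was not tested. Counts of list genes that passed are to be read against the share of all genes passing in the same fit. That share is not given for every fit without a library. After Romidepsin, 15 of 19 measured genes had a positive log2 fold change, and the list's median was 0.41, beside -0.01 over all genes. In the list 3 rose and none fell, beside 0.573% and 0.174% of all genes. The 3 were Lif, a cytokine of the interleukin 6 family (3.64, SE 0.469, adjusted p = 0.0277), the transcription factor Cebpd (1.78, SE 0.260, adjusted p = 0.0308) and Socs3, the feedback inhibitor of JAK kinases (2.79, SE 0.437, adjusted p = 0.0354). Lif was 2.62 to 5.23 CPM in controls and 18.9 to 65.7 CPM after Romidepsin, and Socs3 13.7 to 33.1 against 69.9 to 202.3 CPM. Neither gene overlapped between groups. The likelihood ratio test and DESeq2 each passed 7 genes of the list, all higher, beside 1185 and 1074 of all 16049 genes. Without Romidepsin control 1, Lif alone rose (beside 0.494% of all genes passing), and without treated 1 the count was 7 (beside 3.10%). After DZNep the list went the other way in most genes, 13 of 19 negative, with 2 that rose (the receptor Lifr by 0.53, adjusted p = 0.00121, and Jak2 by 0.21, adjusted p = 0.0437) and 3 that fell. Those were the receptor chains Osmr (-0.47, adjusted p = 0.00247) and Il6st (-0.20, adjusted p = 0.0180) and the endothelin Edn2 (-0.85, adjusted p = 0.00671), which photoreceptors make under stress. After UNC1999, 7 of 19 were positive and none passed (2 with an unadjusted p under 0.05, with 2 lower by the likelihood ratio test and 1 by DESeq2). Without UNC1999 control 3, 3 genes fell. After UNC0642, 12 of 20 were positive and none passed (6 with an unadjusted p under 0.05, and 1 higher, Ednrb, by each of the other tools).

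The difference between Romidepsin and the mean of the other 3 inhibitors was positive for 18 of 20 genes of this list, and 6 passed, all higher after Romidepsin. The 4 with the smallest p were Cebpd (1.96, adjusted p = 0.00493), Bcl3, a nuclear partner of NF-kB that STAT3 is known to induce (2.97, adjusted p = 0.00721), Socs3 (2.82, adjusted p = 0.00876) and Edn2 (1.65, adjusted p = 0.0158). The other 2 were Lif (3.01, adjusted p = 0.0300) and Stat3 (0.76, adjusted p = 0.0404), named in addition. Without Romidepsin control 1, Socs3, Cebpd and Bcl3 still passed, 3 in all. Against UNC1999 alone 6 passed, and 4 without Romidepsin control 1 or without UNC1999 treated 1. Against DZNep 1 passed (Cebpd), none without Romidepsin control 1, 3 without UNC1999 control 3, 5 without Romidepsin treated 1 and 6 without UNC1999 treated 1. Against UNC0642 none passed (9 with an unadjusted p under 0.05), 3 passed without Romidepsin treated 1, and the likelihood ratio test and DESeq2 each passed 4.

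A second list held 31 further genes known from reactive glia. After DZNep, 22 of 30 measured genes were negative, 10 fell and 2 rose, with a median of -0.36. Of all genes, 9.72% fell and 12.9% rose. Mt2, a metallothionein (-0.69, adjusted p = 0.00103), Steap4, a metalloreductase (-1.77, adjusted p = 0.00105), S100a10 (-0.60, adjusted p = 0.00134) and Amigo2 (-0.37, adjusted p = 0.00246) had the smallest p. After UNC1999, 21 of 30 were negative and none passed, with 15 unadjusted p under 0.05, 8 lower by the likelihood ratio test and 7 by DESeq2. Without UNC1999 control 3, 12 fell. After UNC0642, 15 of 30 were negative and none passed, with 5 unadjusted p under 0.05, 2 higher by the likelihood ratio test and 3 by DESeq2. After Romidepsin, 19 of 30 were positive with a median of 0.31. Tgm1, a transglutaminase, rose (2.28, adjusted p = 0.0338) and Fbln5, an elastic fibre protein, fell (-1.44, adjusted p = 0.0360). For this list 15 genes had an unadjusted p under 0.05, the likelihood ratio test passed 9 higher and 2 lower, and DESeq2 9 higher and 1 lower. Without Romidepsin control 1, neither Tgm1 nor Fbln5 passed and 1 gene of the list, Gbp2, fell, whereas 7 rose and 1 fell without Romidepsin treated 1. Romidepsin less the mean of the other 3 was positive for 22 of 30 genes, of which 6 passed higher and 1 lower. The smallest p belonged to Aspg (2.33, adjusted p = 0.00949), Mt2 (2.20, adjusted p = 0.00983), Fkbp5, a glucocorticoid-induced chaperone partner (1.04, adjusted p = 0.0120), and Fbln5, the 1 that was lower (-1.82, adjusted p = 0.0133). Without Romidepsin control 1, 3 of these passed, Aspg and Mt2 higher and Fbln5 lower.

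The mature Müller glia markers were lower in most genes after each of the 4 inhibitors. Of 14 genes, 13 were negative after DZNep, where 12 fell and none rose (median -0.40), beside 9.72% of all genes lower and 12.9% higher. Aqp4, the glial water channel (-0.66, adjusted p = 0.000671), Sox9 (-0.58, adjusted p = 0.000878), Apoe (-0.79, adjusted p = 0.00175) and the potassium channel Kcnj10 (-0.43, adjusted p = 0.00176) had the smallest p. Under Romidepsin 13 of 14 were also negative (median -0.44), none passed, and 10 had an unadjusted p under 0.05, with 6 lower by the likelihood ratio test and 8 by DESeq2. Without Romidepsin treated 1, 3 fell. For UNC0642 the count was 12 of 14 (median -0.35, none passed, 10 unadjusted, 5 by each of the other tools), and for UNC1999 10 of 14 (median -0.22, none passed, 7 unadjusted, 6 by each of the other tools). Without UNC1999 control 3, 4 fell. In Romidepsin less the mean of the other 3, 1 of the 14 passed, the retinaldehyde-binding protein gene Rlbp1 (-0.63, adjusted p = 0.0388), and none passed without Romidepsin control 1, UNC1999 treated 1 or DZNep control 1. Retinal astrocyte markers had medians between -0.05 and 0.07 in the 4 experiments. These runs without single libraries, and the counts of list genes by other tools, were chosen after seeing the data.

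**Figure D4:**
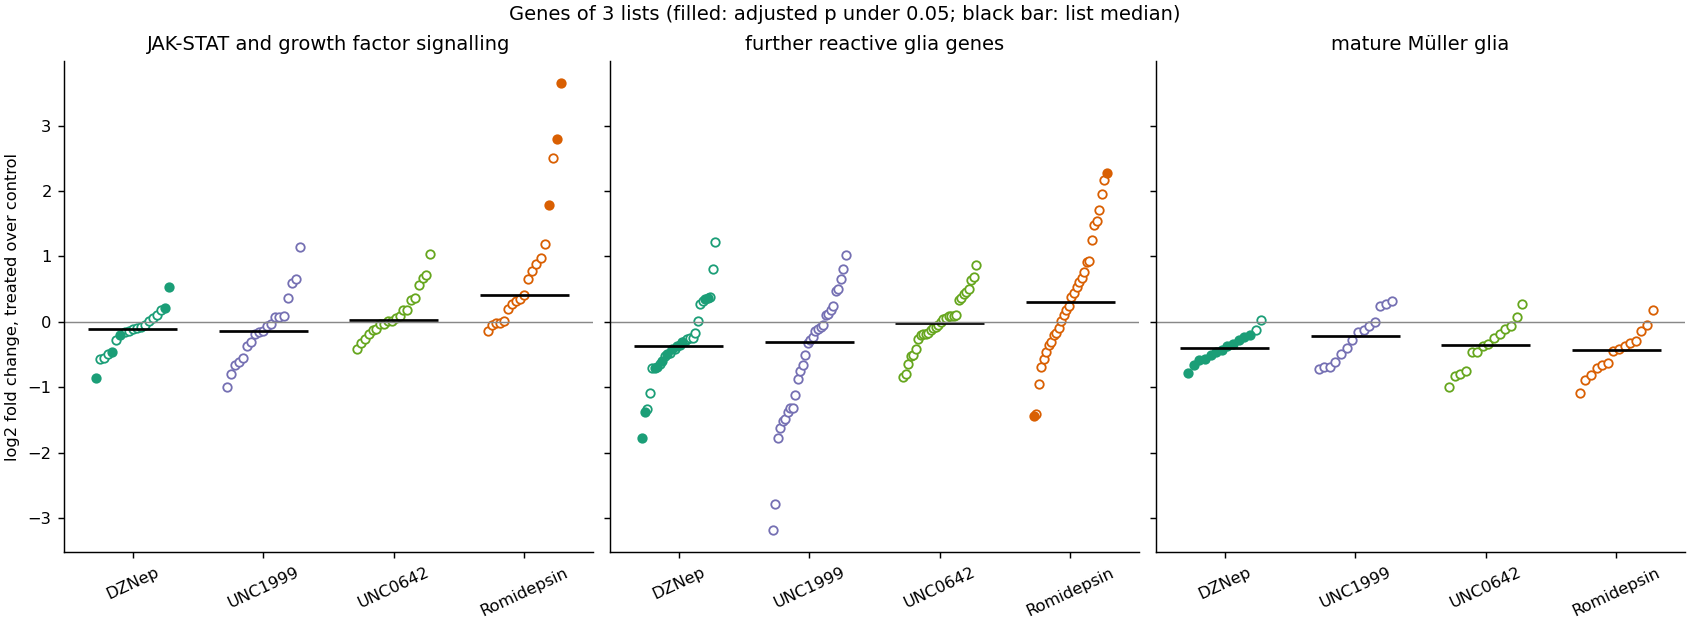
Log2 fold change, treated over control, of every measured gene of 3 lists (JAK-STAT and growth factor signalling, further reactive glia genes, mature Müller glia) after 4 inhibitors in whole retina; points are genes in rising order, filled where the adjusted p was under 0.05, and black bars are list medians. The medians after Romidepsin are 0.41, 0.31 and -0.44, and after DZNep -0.11, -0.36 and -0.40.

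Across the 22 retinas, 7 of the 8 genes varied together and Agt apart from them. Pearson's r of log2 CPM ranged from 0.49 (Lcn2 and Nes) to 0.96 (Serpina3n and A2m) over the 21 pairs without Agt, and from -0.51 to 0.19 over the 7 pairs with it. After subtracting each group's mean the ranges were 0.42 to 0.95 and -0.52 to -0.04, so libraries of 1 group differed along the same line. The points share libraries and library series, and the values are a description of them.

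The genes whose log2 CPM came nearest to each member over the same 22 retinas, among 17274 expressed genes were named by rule. Serpina3n (r = 0.94), Slc39a1 (0.93) and Msn (0.93) were nearest to Gfap. To Vim these were Tagln2 (0.98), S100a11 (0.98) and Mvp (0.97), to Cd44 Capn2 (0.95), Sdcbp (0.94) and Acvr1 (0.94), and to Nes Atf3 (0.94), Wwtr1 (0.94) and Synpo (0.93). Timp1 (0.98), S100a6 (0.97) and Msn (0.97) were nearest to Serpina3n, Cp (0.98), Lilrb4 (0.96) and Axl (0.96) to Lcn2, and Tagln2 (0.96) and Serpina3n (0.96) were near to A2m. Agt had its own neighbours, Spon2 (0.93), Itgb5 (0.92) and Gstt1 (0.92), none of them near another member.

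Because 7 of the genes varied together and Agt did not, the promoters of Vim and Serpina3n, which vary together, and of Agt are shown, as RefSeq gives them on GRCm38.p6. Each is the 250 bases before the gene's start, 5′ to 3′ on the gene's strand, with any STAT motif (TTCNNNGAA) or AP-1 motif (TGANTCA) in capitals. Both motifs read the same on either strand and were searched on both.
Vim (chr2:13574061-13574310, plus strand): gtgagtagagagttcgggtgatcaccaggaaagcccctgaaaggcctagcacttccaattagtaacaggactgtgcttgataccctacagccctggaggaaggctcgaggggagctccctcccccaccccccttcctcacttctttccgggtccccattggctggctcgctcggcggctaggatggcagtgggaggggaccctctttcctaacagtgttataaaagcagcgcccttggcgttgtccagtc
Serpina3n (chr12:104406458-104406707, plus strand): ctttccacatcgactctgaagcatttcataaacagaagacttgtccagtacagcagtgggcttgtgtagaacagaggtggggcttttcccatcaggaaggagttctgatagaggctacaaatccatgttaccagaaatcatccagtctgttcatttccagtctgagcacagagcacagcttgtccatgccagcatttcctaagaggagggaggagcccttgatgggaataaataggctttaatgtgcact
Agt (chr8:124569707-124569956, minus strand): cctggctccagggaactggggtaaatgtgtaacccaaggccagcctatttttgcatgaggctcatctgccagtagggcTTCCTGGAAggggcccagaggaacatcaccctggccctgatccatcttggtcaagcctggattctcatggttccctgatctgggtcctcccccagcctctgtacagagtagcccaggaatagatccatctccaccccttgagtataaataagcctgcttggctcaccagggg
Of the 7 members with a promoter in the RefSeq table, 1 held the STAT motif, Agt from base -172 to -164, and none held the AP-1 motif. Over all 32536 promoters of the table, cut to the same 250 bases, 7.04% held the STAT motif and 6.73% the AP-1 motif.

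In sorted rods all 8 genes were low, at most 10.0 CPM in any library, and none passed between GSK2879552 and control libraries. Lcn2 was highest, at 7.09 and 10.0 CPM in controls and 9.78 and 7.67 CPM treated. A2m followed with 7.22 and 5.21 against 3.33 and 4.24 CPM, Vim with 2.14 and 5.56 against 2.39 and 6.86 CPM, and Gfap with 4.82 and 2.75 against 1.35 and 2.02 CPM, which is 20 to 47 counted reads. Serpina3n (0.520 to 2.75 CPM), Cd44 (0.401 to 2.96 CPM) and Agt (0.807 to 2.63 CPM) were lower still. Nes had 1 or 2 counts in each library, below the limit of 3 that a count of 0 allows, and gets no fold change. Whole retinas, scaled apart and made with another kit, ran from 142 to 929.7 CPM for Gfap and 231 to 955 CPM for Vim.

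Treated rods lay below control rods for Gfap (log2 fold change -1.16, SE 0.626) and A2m (-0.71, SE 0.459), 2 of 7 genes tested, beside 33.2% of all genes with groups apart. The adjusted p was 0.987 for both. No gene of the 14478 tested passed (0% higher, 0% lower), none of the 7 had an unadjusted p under 0.05, and the likelihood ratio test and DESeq2 also passed none of the 7. The 95% intervals ran, for example, from -2.20 to 1.38 for Agt and from -0.84 to 0.89 for Lcn2. Rod markers summed to 37053 to 56700.1 CPM in these libraries, mature Müller glia markers to 470 to 739 CPM and microglia markers to 62.7 to 71.9 CPM, so transcripts of other cells were present at a low level. Their part in the members' counts was not tested.

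Near-identical genes could take reads from Serpina3n and A2m, and the counter's strand setting was not given. Paralogs of Serpina3n (10 genes) summed to at most 18.1 CPM in any retina, where Serpina3n itself was 61.7 to 666 CPM, and those of A2m (5 genes) to at most 8.81 CPM, where A2m was 74.2 to 609 CPM.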

How the data were processed

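Whole retinas (22 libraries) and FACS-sorted rods (4 libraries) were sequenced as mRNA. The authors trimmed reads with BBDuk, aligned them to NCBIM37/mm9 with HISAT2 2.2.1 and deposited raw counts per Ensembl gene from HTSeq 0.11.2; the strand setting is not given in the sources used here. Symbols came from the GENCODE annotation of that build, which named 37205 of the 37991 genes. The library kit and library series of the rods differed from those of the retinas, and UNC1999 retinas formed a library series apart from the other 3 retina experiments.

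From the counts, edgeR 4.0.16 in R 4.3.3 filtered genes (filterByExpr), scaled libraries by TMM (factors 0.896 to 1.07 over the retinas) and tested treated against control within each experiment by quasi-likelihood, and Romidepsin against the other inhibitors as differences of log2 fold changes over 22 retinas. P-values were adjusted by Benjamini-Hochberg over all genes tested, and 0.05 was the threshold. Intervals are 95% and assume the fitted spread. A count of 3 was the detection floor, 0.0825 to 0.219 CPM in retinas and 0.151 to 0.412 CPM in rods, for counting error only. The alternatives tried were the likelihood ratio test of the study, DESeq2 1.42.0, another normalization, other filters, a replicate block, a fold threshold, other sets of libraries and leaving out each library. Fits were tested on simulated data. No 2 libraries of 1 group held the same counts within sampling noise.

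The 8 genes, the gene lists and the comparisons were chosen with earlier results of these data known. Named in addition were the 3 genes nearest to each member by Pearson's r of log2 CPM (prior count 2) and up to 4 genes per list and comparison with the smallest p among those that passed. Of these and the markers, 1 rod marker and 1 gene near A2m are not reported here. Of the 13 lists, those not described in the results summed over retinas to 36.4 to 168 CPM (blood) and at most 76.5 CPM (lens, in 1 DZNep treated library). In the labels the number that ends the genotype climbs by 1 from library to library and that of UNC1999 likewise (to UNC2001), which was read as a running number. The labels give daily injections for all inhibitors, whereas the study's methods give a sparser DZNep schedule.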

Additional observations from a re-analysis of the deposited data

Results flagged for a closer look

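DZNep control 1 stood far above the other 3 DZNep controls for 2 of the 8 genes, Vim at 349.0 CPM against 231 to 242 CPM and Nes at 18.0 CPM against 11.7 to 12.7 CPM. The gap to the nearest control was 0.904 of the group's range for Vim and 0.841 for Nes, above the critical value of 0.829 for 4 samples. The other groups have 2 or 3 libraries and were not tested in this way, and chance gives about 1 such result in 20 tests.

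The log2 fold change after Romidepsin differed from the mean of the other 3 inhibitors, by edgeR's quasi-likelihood test of the difference, for 9 named list genes. It was higher by 1.96 for Cebpd, 2.97 for Bcl3, 2.82 for Socs3 and 1.65 for Edn2 among the signalling genes, and by 2.33 for Aspg, 2.20 for Mt2 and 1.04 for Fkbp5 among the reactive glia genes. For Fbln5 the difference was -1.82 and for Rlbp1 -0.63. None of the 8 reactive gliosis genes met the same threshold.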

How the results depend on the processing

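The count of the 8 genes that passed differed between tests, fits and sets of libraries. The likelihood ratio test passed 1 after UNC1999, 3 after UNC0642, 3 after Romidepsin, 4 for Romidepsin less UNC1999 and 1 for Romidepsin less the mean of the other 3, each 0 by quasi-likelihood. DESeq2 passed 1, 3 and 4 after the same inhibitors, 1 for Romidepsin less DZNep and 3 for Romidepsin less UNC1999. Without a filter on low counts these were 1, 3 and 2 after the same inhibitors, beside 4.52%, 4.55% and 2.86% of all genes. Unfiltered, 3 passed for Romidepsin less UNC1999 (beside 3.09%) and 1 for Romidepsin less the mean (beside 1.89%). Over all genes, quasi-likelihood, likelihood ratio test and DESeq2 passed 120, 1185 and 1074 after Romidepsin, 95, 1641 and 1459 after UNC1999, 0, 145 and 152 after UNC0642 and 0, 71 and 43 in rods. For Romidepsin less DZNep they passed 50, 321 and 342, less UNC1999 883, 1267 and 1333, less UNC0642 3, 171 and 235, and less the mean 486, 816 and 870. One fit of all 22 retinas gave 1 after UNC1999 (beside 8.37% of all genes) and 3 after Romidepsin (beside 17.3%). It took Serpina3n after DZNep out (adjusted p = 0.289, edgeR), which left 2, beside 7.72% of all genes. The library series of Romidepsin, UNC0642 and DZNep alone gave 1 for Romidepsin less DZNep, beside 0.708% of all genes. The cause was not tested.

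With the replicate number as a block, 5 of the 8 genes passed after DZNep (Gfap, Cd44, Serpina3n, Agt and A2m, beside 8.59% of all genes), 4 after UNC0642 (Vim, Lcn2, Nes and Agt, beside 3.61%) and 2 after Romidepsin (Nes and A2m, beside 0.604%). Same-numbered libraries did not deviate together in every pair (r = -0.28, 0.23 and -0.04 for UNC1999, 0.20, -0.04 and -0.27 for Romidepsin, and -0.21 and 0.02 for DZNep). Both UNC0642 pairs stood at 0.21, but with 2 libraries per group the 2 values must be equal. So few pairs do not settle whether the libraries were paired. The labels give only a shared number, so the main fits used no block.

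Fits that left 1 library in the DZNep treated group, or in an UNC0642 or rod group, are not counted here. Leaving out each DZNep control gave 3 to 5 genes after DZNep, beside 14.3% to 27.8% of all genes. Leaving out each library gave 0 to 1 after UNC1999, where the share of all genes passing is not given for each fit. After Romidepsin it gave 0 to 2, beside 0% to 3.10% of all genes. The differences from Romidepsin gave 0 to 1 for DZNep, 0 to 4 for UNC1999, 0 to 0 for UNC0642 and 0 to 2 for the mean of the other 3. Without Romidepsin treated 1, which gave 4 for UNC1999 and 2 for the mean, 11.8% and 9.14% of all genes passed. Other normalization and a minimum of 10 counts in every library left every count as it was, and no called gene changed direction. Counts were low in the sorted rods, where 7 of the 8 genes had at most 188 counts and Nes at most 2.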
